A study of Mus musculus with 6 samples.

Results

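The genes described here are 45 motile cilia and axoneme genes, out of 21878 genes in a count table of mouse thyroid RNA. They were selected by name, as tektins, axonemal dyneins, radial spoke, central pair and docking genes together with the transcription factors of motile cilia, and Tekt1 was already known to differ between the groups when the list was drawn up. The values of this comparison therefore describe the genes and are no independent evidence about them. Of the 45 genes, 42 were found by symbol and 3 by NCBI gene identifier, since the table lists Dnai1 as Dnaic1, Dnai2 as Dnaic2 and Drc3 as Lrrc48.

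The libraries came from thyroid glands of female mice aged 12 weeks, with 3 Thy-Tet1+/+ control mice and 3 mice labelled Thy-Tet1-/-. In the latter a floxed Tet1 allele is removed by a Cre recombinase active in thyroid follicular epithelium, and the controls were wild-type littermates. The removal is thus limited to the cells in which Cre is made. The deposited protocol describes polyadenylated RNA and speaks of retinas, while the stated source is thyroid.

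Motile cilia beat by means of an axoneme, a ring of doublet microtubules around a central pair, on which dynein arms slide one doublet against the next. Tektins are filaments inside the doublet wall, radial spokes carry signals between the central pair and the dyneins, and a ruler complex and the nexin-dynein regulatory complex set the spacing and the bend. Multiciliated cells of airway, oviduct and brain ventricles switch these genes on through Mcidas, Ccno, Myb, Foxj1 and the RFX factors, whereas the thyroid follicle is best known for single cilia on its follicular cells.

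Total counts were 8867683 to 19950898 per library, so that 3 counts equalled 0.150 to 0.338 CPM (counts scaled to a common library total), a floor that covers counting error only. Levels are CPM scaled by the trimmed mean of M-values (TMM), and values are given for control replicates 1, 2 and 3 and then for the knockout-labelled replicates 1, 2 and 3. Tet1 itself was at 5.69, 3.79 and 3.44 CPM in the controls and at 9.36, 9.59 and 12.2 CPM in the libraries labelled Thy-Tet1-/-, which goes against the label (log2 fold change 1.28 ± 0.27 (SE), edgeR adjusted p = 0.101). Counts per gene do not show the removed part of the gene by itself. Every direction below is therefore given for the libraries as labelled. Libraries also differed in tissue next to the gland. Summed parathyroid markers (Pth, Gcm2, Casr and Chga, all 4 detected) ranged from 192 to 31316 CPM, and summed thymocyte markers from 2.94 to 618 CPM. Summed markers of airway epithelium ranged from 41.8 to 494 CPM, and those of skeletal muscle from 42.5 to 8490 CPM. Adipocyte markers moved with the groups, with 6 of 6 higher in the knockout-labelled libraries (median log2 fold change 1.58) and 3 meeting the limits for a call given below. Their sums of 496, 214 and 153 CPM in the controls and 1616, 739 and 356 CPM in the others overlapped. Markers of follicular cells, the gland's own cells, summed to 256590, 316700 and 288612 CPM in the controls. In the others they summed to 208298, 239574 and 193764 CPM, without overlap. Tg alone was at 190750 to 313433 CPM. Of the 10 tested, 5 were higher and 5 lower. Tshr (log2 fold change -2.16 ± 0.17) and Iyd (-0.63 ± 0.22) met the limits as lower and Nkx2-1 (0.65 ± 0.22) as higher, where 3.66% and 5.54% of all genes did. The part of either list in the values of the cilia genes was not tested.

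Of the 45 genes, 30 had enough counts to be tested with edgeR, 15 did not, and 7 of these had at most 5 counts in every library. Of the 30 tested genes, 19 were higher and 11 lower in the libraries labelled Thy-Tet1-/-. The limits used for a call were a change of more than 1.5-fold in either direction with p below 0.05 before adjustment. Foxj1, Cfap43 and Cfap44 met them as higher, 3 of 30 genes where 5.54% of the 14143 genes tested did, and Tekt1, Ak7 and Dnah11 met them as lower, 3 of 30 where 3.66% of all genes did. Only Tekt1 had an adjusted p under 0.05, as did 0.113% of all genes tested. The 3 control and 3 knockout-labelled libraries did not overlap, on the higher side, for 5 tested genes (12.5% of all genes) and, on the lower side, for 4 (14.3%). The median log2 fold change was 0.32 over the 30 genes and 0.0006 over all genes tested, and single genes ranged from -3.19 to 1.84. Cfap43 and Cfap44 passed the count filter through the knockout-labelled libraries, where they were high, so their calls depend on that filter. Over the 18 genes with at least 10 counts in every library the median was -0.19. Of these 18, 0 were called higher and 3 lower, where 737 and 488 of all 12804 genes were. Scaling to 10 epithelial marker genes raised the median of all genes to 0.49 and that of the list to 0.77, and turned the sign of Rfx2, Dnah1, Dnah12, Rsph1 and Tppp3. These counts rested in part on single libraries. Without control replicate 1 the higher calls numbered 8 of 35 tested (5.97% of all genes), without control replicate 2 they numbered 5 of 35 (4.95%), and without control replicate 3 the lower calls numbered 5 of 34 (4.08%). The median was 0.14 without knockout-labelled replicate 3 and 0.49 without control replicate 3. With any 1 of the 6 libraries left out, the number of genes with an adjusted p under 0.05 was 0, while 5 to 12 of the 32 to 35 tested had an unadjusted p under 0.05, against 12.3% to 20.7% of all genes, and Tekt1 and Ak7 met the limits each time. With all 6 libraries, 6 of the 30 had an unadjusted p under 0.05, against 18.9% of all genes. The number of cilia genes without overlap was 9 of 30 with all libraries (26.8% of all genes on either side) and 10 to 16 of 32 to 35 in these smaller comparisons (32.1% to 40.9% of all genes). It was 15, 15 and 16 without control replicates 1, 2 and 3 and 14 without knockout-labelled replicate 2. Fewer libraries leave more genes without overlap over the whole table too, so the larger numbers say nothing about the cilia genes. In bulk tissue, fewer cells of a type and less RNA per cell cannot be told apart.

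**Figure D1:**
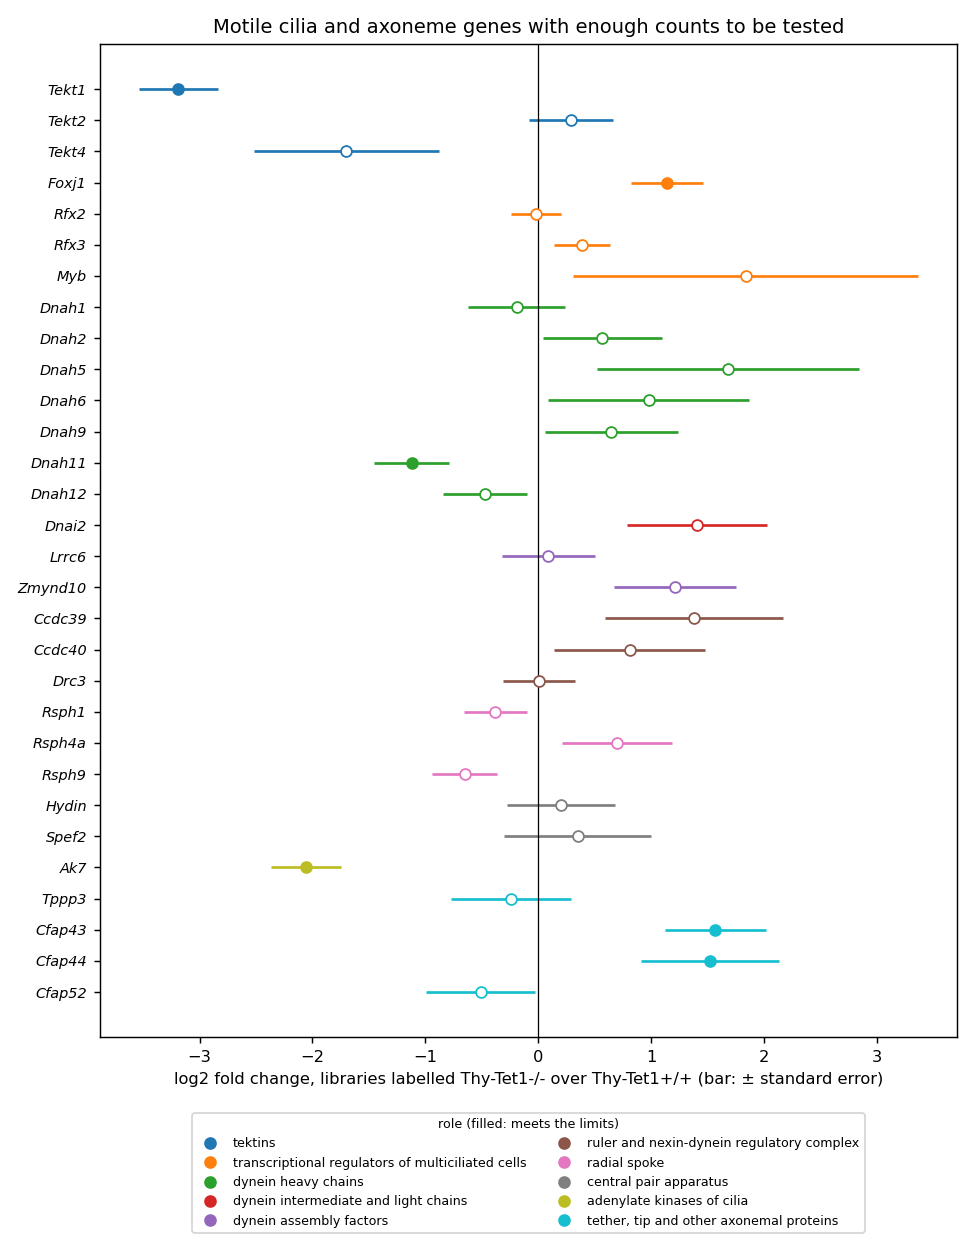
Log2 fold change with its standard error for each of the 30 tested genes, coloured by role, with filled points for genes that met the limits. Tekt1 and Ak7 lie farthest to the lower side at -3.19 and -2.06, while most of the other genes lie within their error of 0 or above it.

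Among the transcriptional regulators, Foxj1, the forkhead factor that drives motile cilia genes, was higher in the libraries labelled Thy-Tet1-/-. It was at 1.07, 1.02 and 0.998 CPM in the controls and at 2.50, 2.13 and 2.18 CPM in the knockout-labelled libraries, from 9 to 46 counts per library. The groups did not overlap, with means of 1.03 ± 0.036 and 2.27 ± 0.202 CPM (SD, n = 3 each), a 2.21-fold difference. The control values rest on 9, 19 and 18 counts. Their SD is below the 0.150 to 0.338 CPM that equal 3 counts, and is no measure of precision. The gene lies at chr11:116330704-116335399 on the minus strand. The log2 fold change was 1.14 ± 0.32 and the adjusted p 0.145. Without knockout-labelled replicate 1 it was 1.04 ± 0.43 and no longer met the limits (adjusted p = 0.407).

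Mcidas and Ccno, regulators that start the multiciliated state, were barely read. Mcidas, a coregulator of E2F factors, had 1 count in control replicate 1 and 0 in the other libraries. Ccno, a cyclin-like protein needed for making many centrioles, had 3, 8 and 8 counts in the controls and 10, 8 and 16 in the knockout-labelled libraries. By its CPM it was 1 of 4 untested genes that were higher without overlap, with Dnah3, Dnaaf1 and Sntn, against 5.56% of the 3635 genes with reads that were not tested. Ccdc113 was the 1 untested gene that was lower without overlap, against 1.38% of these genes. Myb was at 12.8, 3.10 and 1.33 CPM in the controls and at 1.42, 1.60 and 56.3 CPM in the knockout-labelled libraries. Its 2 high libraries were also the 2 with the most thymocyte marker RNA, and Myb is also known as a factor of immature lymphocytes. Its log2 fold change of 1.84 ± 1.53 became -1.89 without knockout-labelled replicate 3.

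The RFX factors, which bind X-box sequences in cilia genes, had small fold changes. Rfx2 was at 6.76, 7.96 and 5.71 CPM against 7.13, 6.57 and 6.50 CPM (log2 fold change -0.02 ± 0.22). Rfx3 was at 10.6, 15.6 and 8.82 CPM against 14.6, 13.3 and 18.0 CPM (0.39 ± 0.25). Both sets of libraries overlapped. RFX factors also act in cells with single cilia.

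Tekt1, the gene with the largest difference, encodes tektin 1 and lies on chromosome 11 (GRCm38, chr11:72344722-72362442, minus strand). It was at 24.9, 14.5 and 27.2 CPM in the controls, from 210, 272 and 490 counts, and at 3.32, 1.84 and 2.13 CPM in the knockout-labelled libraries, from 61, 31 and 42 counts. Every control lay above every knockout-labelled library, and the group means of 22.2 ± 6.73 and 2.43 ± 0.786 CPM (SD, n = 3 each) differed 9.14-fold. The log2 fold change was -3.19 ± 0.35 with an edgeR adjusted p of 0.0466. Over the 13 other settings the log2 fold change ran from -3.49 to -2.73 and met the limits each time. The adjusted p of Tekt1 was 1.53e-14 with DESeq2, 0.0729 with limma-voom and 0.0803 to 0.190 with 1 library left out. No other gene in the annotation shares its exons. The 150 bases before its RefSeq start (GRCm38.p6, chr11:72361883-72362032, minus strand) are shown because this gene differed most. They lie within the longer GENCODE gene span and outside its exons, and capitals mark the RFX core motif on either strand.
Tekt1: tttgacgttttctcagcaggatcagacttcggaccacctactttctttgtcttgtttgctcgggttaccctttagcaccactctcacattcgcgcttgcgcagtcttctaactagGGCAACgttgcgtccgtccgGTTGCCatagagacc

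Among the other tektins, no group stood apart. Tekt2 was at 1.07, 1.12 and 1.05 CPM in the controls and at 1.69, 1.07 and 1.22 CPM in the knockout-labelled libraries (log2 fold change 0.29 ± 0.37), and the groups overlapped. The annotation places a transcript on the opposite strand over 20.8% of its exons, and it is not known if reads were counted by strand. Tekt4 was at 2.85, 12.7 and 1.28 CPM against 1.52, 1.36 and 2.29 CPM. Control replicate 2 alone stood apart, and the log2 fold change of -1.70 ± 0.82 became -0.23 ± 0.53 without it. Tekt3 had 1 and 2 counts in knockout-labelled replicates 1 and 3 and 0 elsewhere. Per kilobase of exon, Tekt1 averaged 7.59 CPM over the 6 libraries, Tekt4 1.83, Tekt2 0.633 and Tekt3 0.0149.

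**Figure D2:**
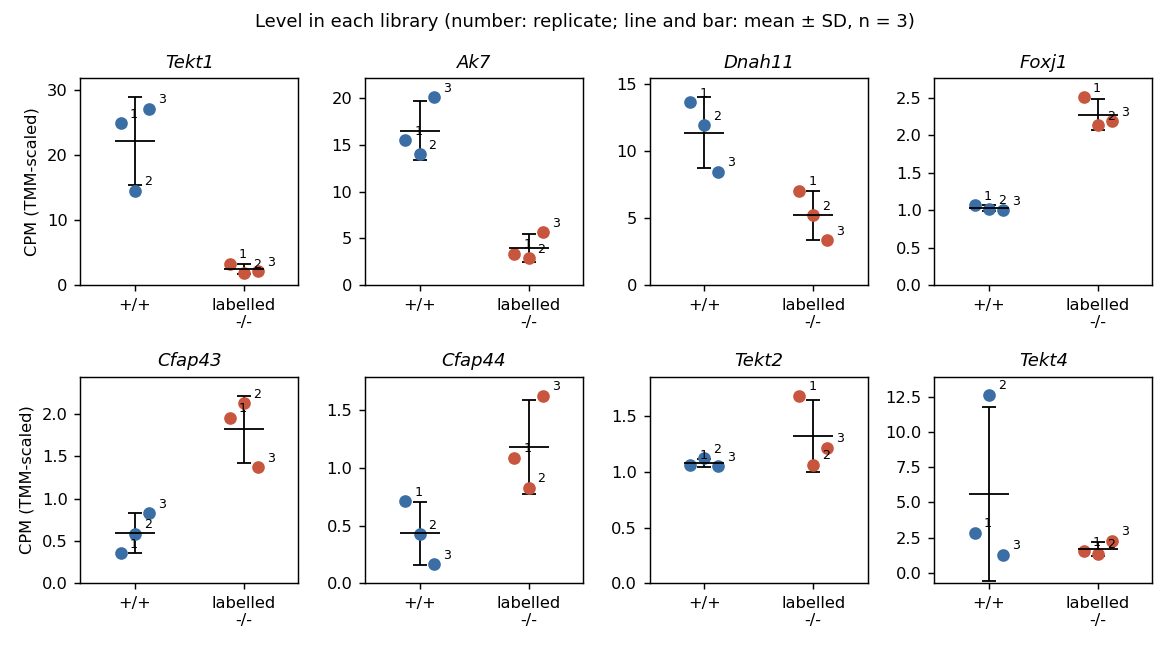
CPM in each library of the 6 genes that met the limits and of the tektins Tekt2 and Tekt4, with the mean and SD of each group (n = 3). Tekt1, Ak7 and Dnah11 sit lower and Foxj1, Cfap43 and Cfap44 higher in the knockout-labelled libraries, with no overlap of the groups, whereas the mean of Tekt4 is set by control replicate 2 at 12.7 CPM.

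Among the 9 dynein heavy chains, the motor subunits of the arms, 7 were tested, 4 higher and 3 lower. Dnah11, an outer arm chain at chr12:117877982-118199043 on the minus strand, was lower. It was at 13.6, 11.9 and 8.43 CPM in the controls and at 7.02, 5.21 and 3.35 CPM in the knockout-labelled libraries, without overlap, and the log2 fold change was -1.12 ± 0.33 (adjusted p = 0.159). Its exons share 642 bases, 4.44% of their length, with Cdca7l on the opposite strand. When libraries were scaled to epithelial markers, the value was -0.62 ± 0.38, outside the limits. Dnah5, its partner in the outer arm, was at 1.19, 0.160 and 0 CPM against 1.47, 0.710 and 1.47 CPM (1.68 ± 1.16), with overlapping groups. The third outer arm chain, Dnah9, had a log2 fold change of 0.65 ± 0.59. The inner arm chains ranged from -0.47 ± 0.37 for Dnah12 to 0.98 ± 0.89 for Dnah6. Dnah3 was not tested, and had 2, 2 and 1 counts against 14, 9 and 25. Its groups did not overlap, but 1506 bases of its exons lie opposite Lyrm1. Dnah7a had at most 3 counts in any library.

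Of the intermediate and light chains, Dnai2 was at 0.474, 0.214 and 0.111 CPM in the controls and at 0.708, 0.592 and 0.660 CPM in the knockout-labelled libraries (log2 fold change 1.41 ± 0.62). The groups did not overlap, yet each control held at most 4 counts. Dnai1 had 4, 5 and 13 counts against 9, 27 and 8, and Dnali1 5, 4 and 16 against 16, 6 and 8, both overlapping. Among the assembly factors, which fold dynein arms in the cytoplasm, Zmynd10 was at 0.948, 0.428 and 0.610 CPM against 0.817, 1.48 and 2.18 CPM (1.21 ± 0.54), and the groups overlapped. An antisense transcript covers 214 bases of its exons. Lrrc6, which works with Zmynd10, was at 0.09 ± 0.41. Dnaaf1 had 1, 1 and 2 counts in the controls and 9, 5 and 8 in the others, and 20.7% of its exon length lies opposite Taf1c.

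Ccdc39 and Ccdc40 form the ruler that sets where dyneins and spokes attach. Ccdc39 was at 3.56, 0.481 and 7.04 CPM in the controls and at 7.13, 10.9 and 10.9 CPM in the knockout-labelled libraries. The groups came close without overlapping, and the log2 fold change of 1.38 ± 0.79 was 0.85 ± 0.39 without control replicate 2. Part of its exons, 16.9%, lies opposite Ttc14. Ccdc40 had a log2 fold change of 0.81 ± 0.67. Of the nexin-dynein regulatory complex, Drc3 was at 0.01 ± 0.32, and Drc1 had 0 to 24 counts with overlapping groups.

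Of the radial spoke genes, Rsph9 was lower without overlap but outside the limits. It was at 16.5, 16.1 and 32.4 CPM in the controls and at 14.0, 14.4 and 13.0 CPM in the knockout-labelled libraries (log2 fold change -0.65 ± 0.29). Control replicate 3 was the high one, and without it the log2 fold change was -0.23 ± 0.16. Rsph1 was at 4.74, 3.53 and 4.27 CPM against 3.10, 3.61 and 2.89 CPM (-0.38 ± 0.28), with overlap. Rsph4a stood on the other side at 0.70 ± 0.49. Among the central pair genes, Hydin and Spef2 had log2 fold changes of 0.20 ± 0.48 and 0.35 ± 0.65. Both changed sign without control replicate 2, to -0.14 and -0.13. Spag6, Spag16 and Spag17 were not tested and had at most 5 counts in any library.

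Ak7, an adenylate kinase of motile cilia, had the second largest lower value. It lies at chr12:105705976-105782447 on the plus strand and shares exons with no other annotated gene. It was at 15.5, 14.0 and 20.1 CPM in the controls and at 3.38, 2.90 and 5.64 CPM in the knockout-labelled libraries. The groups did not overlap, with means of 16.6 ± 3.19 and 3.97 ± 1.46 CPM (SD, n = 3 each), a 4.17-fold difference. The log2 fold change was -2.06 ± 0.31 (adjusted p = 0.0730) and met the limits in all 13 other settings, between -2.40 and -1.59. Ak8, a related kinase, had 5, 16 and 7 counts against 15, 9 and 5. The 150 bases that end just before the Ak7 exons (GRCm38.p6, chr12:105705826-105705975, plus strand) hold the forkhead motif, in capitals, and are shown as those of the second gene by size.
Ak7: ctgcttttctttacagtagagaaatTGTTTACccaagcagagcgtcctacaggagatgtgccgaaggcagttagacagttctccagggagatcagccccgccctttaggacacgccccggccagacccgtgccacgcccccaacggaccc

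Cfap43 and Cfap44, which together tether the motor head of an inner arm dynein, were both higher. Cfap43 was at 0.356, 0.588 and 0.832 CPM in the controls and at 1.96, 2.13 and 1.37 CPM in the knockout-labelled libraries (log2 fold change 1.57 ± 0.45, adjusted p = 0.150). Cfap44 was at 0.711, 0.427 and 0.166 CPM against 1.09, 0.829 and 1.63 CPM (1.52 ± 0.61, adjusted p = 0.247). Neither pair of groups overlapped. The exons of Cfap43 share 164 bases with Itprip on the same strand. Cfap43 met the limits in all 12 other settings that could test it, between 1.35 and 2.07. Cfap44, with 3 to 32 counts per library, met them in 4 of 12. It missed them without any 1 of the libraries other than control replicate 1, at 1.09 to 1.70. The upstream bases of both genes are shown because this pair was higher together. Those of Cfap43 (GRCm38.p6, chr19:47837383-47837532, minus strand) lie within the longer GENCODE gene span, and those of Cfap44 are at chr16:44394646-44394795 on the plus strand. Capitals mark a forkhead match in Cfap43, and in Cfap44 an RFX core motif and an X-box match.
Cfap43: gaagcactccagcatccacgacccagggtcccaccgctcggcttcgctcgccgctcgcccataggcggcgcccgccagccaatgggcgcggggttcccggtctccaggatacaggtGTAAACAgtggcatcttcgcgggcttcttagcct
Cfap44: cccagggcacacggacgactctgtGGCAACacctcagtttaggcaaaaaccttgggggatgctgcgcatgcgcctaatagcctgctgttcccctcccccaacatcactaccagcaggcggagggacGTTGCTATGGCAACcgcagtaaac

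The remaining proteins of the shaft and tip varied in direction. Tppp3, a tubulin binding protein that is also made outside cilia, was at 15.9, 66.4 and 19.9 CPM in the controls and at 25.4, 34.6 and 27.3 CPM in the knockout-labelled libraries. The log2 fold change of -0.24 ± 0.53 became 0.69 ± 0.20 without control replicate 2. Cfap52, a protein inside the doublet wall, was at 5.45, 8.76 and 16.1 CPM against 10.6, 6.28 and 4.47 CPM (-0.51 ± 0.48), with overlap. Sntn, a protein of the ciliary tip, had 0 counts in the 3 controls and 2, 2 and 4 in the others, higher without overlap but at few counts. Ccdc113 had 5, 23 and 11 counts against 7, 9 and 5.

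Compared per kilobase of exon, the genes covered a wide range of levels. The mean of Tppp3 was highest in both groups, at 18.4 CPM per kilobase in the controls and 15.7 in the knockout-labelled libraries. Its control mean was raised by replicate 2, at 66.4 CPM before division by length, against 15.9 and 19.9 CPM in replicates 1 and 3. In the controls the mean of Tppp3 was followed by Tekt1 at 13.7, Rsph9 at 13.5, Cfap52 at 4.35 and Ak7 at 3.93. In the knockout-labelled libraries Rsph9 at 8.64, Cfap52 at 3.07 and Rsph1 at 2.33 came next, and Tekt1 was below these. Over the 6 libraries, the dynein heavy chains reached a mean of 1.60 at most, for Dnah12, and the central pair genes 0.698, for Spef2. Within the controls, Tppp3 varied by more than its lead over Tekt1 and Rsph9. The lowest level per kilobase was that of Mcidas at 0.00831. Mcidas, Tekt3, Spag6, Dnah7a and Sntn had at most 4 counts in any library. Of the 6 transcriptional regulators, Mcidas alone was below the floor in every library, while Ccno was at 0.356 to 0.812 CPM and Foxj1 at 0.998 to 2.50 CPM.

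Several genes had their highest or lowest level in the same library as markers of tissue next to the thyroid. They were picked after their values were seen. Summed parathyroid markers were 7943, 192 and 31316 CPM in the controls and 10617, 21619 and 11875 CPM in the knockout-labelled libraries. Of the 30 tested genes, 10 had their lowest level in control replicate 2, which was also the library with the least parathyroid RNA. Ccdc39 was 0.481 CPM there and 3.56 to 10.9 CPM elsewhere, Spef2 was 1.44 against 5.44 to 10.9 CPM, Dnah9 was 1.39 against 4.57 to 9.12 CPM, and Rsph4a was 0.588 against 1.19 to 2.37 CPM. Control replicate 3 held the lowest level of 12 other tested genes and had the most parathyroid RNA. Airway markers summed to 215, 494 and 41.8 CPM in the controls and 205, 253 and 249 CPM in the others, with 9 of the 12 tested. Tekt4 and Tppp3 were both highest in control replicate 2, where Bpifa1 was 257 CPM, but Muc5b was at most 0.327 CPM and Muc5ac and Bpifb1 at most 0.163 CPM in any library. Thymocyte markers summed to 153, 7.54 and 6.43 CPM against 2.94, 3.85 and 618 CPM, with 5 of the 11 tested. Cartilage markers were at 13.6 to 34.6 CPM, with Matn1, Matn3 and Snorc at 0 throughout. The part of any of these tissues in the values of the cilia genes was not tested. Tekt1 and Ak7 were higher in every control than in any knockout-labelled library. The follicular cell sums, most of which are Tg, were also higher in every control than in any knockout-labelled library. Of the 10 tested follicular cell markers, 5 were higher and 5 lower in the knockout-labelled libraries. By fold change, 6 of 6 adipocyte markers were higher in the knockout-labelled libraries. A cause of the Tekt1 and Ak7 differences was not tested.

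**Figure D3:**
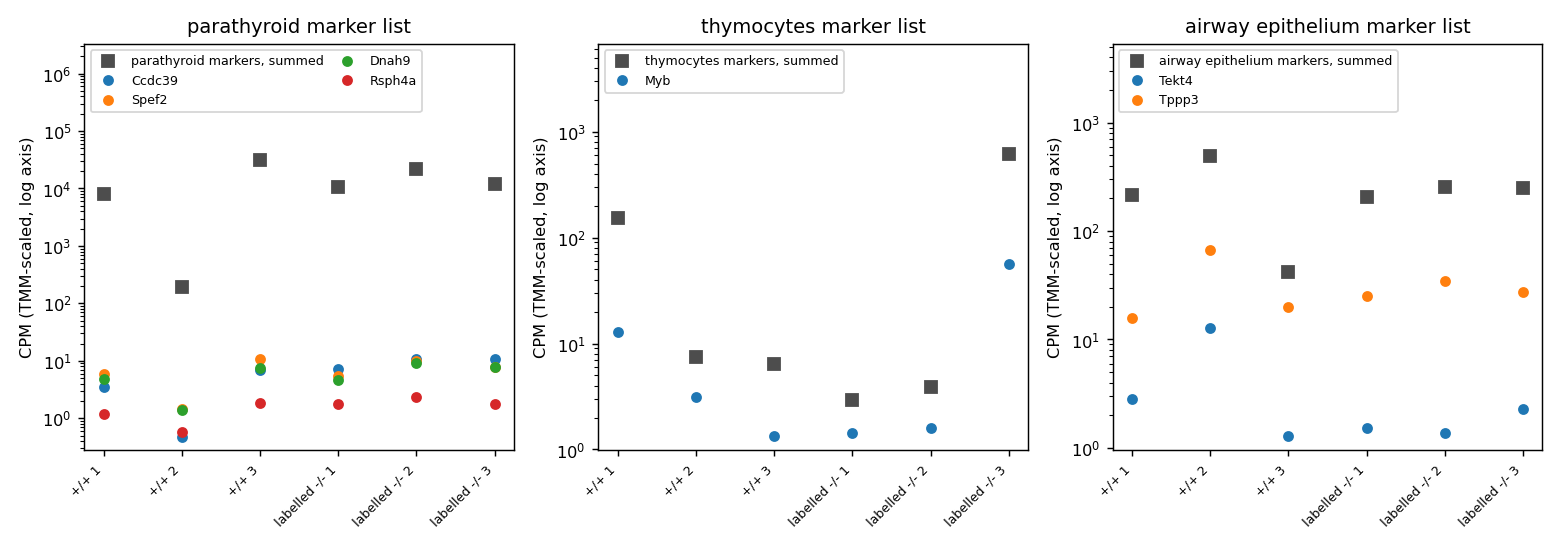
CPM (log axes) of summed marker lists (squares) and of chosen cilia genes (circles) in each of the 6 libraries. Control replicate 2 is lowest for the parathyroid markers and for 4 cilia genes and highest for the airway markers, Tekt4 and Tppp3, and Myb follows the thymocyte markers.

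Other cilia genes gave a wider frame. A list of 76 further motile cilia genes, of which 75 were in the table and 53 were tested, had a median log2 fold change of 0.23, with 40 genes higher and 13 lower. 5 met the limits, all on the higher side, where 5.54% of all genes were called higher and 3.66% lower: Cfap65 (2.83 ± 0.70), Fam183b (1.35 ± 0.56), Lrrc23 (1.07 ± 0.43), Ttc25 (0.79 ± 0.28) and Spef1 (0.62 ± 0.21). Cfap65, a flagellar protein, was at 0.474, 0.0534 and 0.166 CPM in the controls and at 1.69, 1.36 and 1.32 CPM in the knockout-labelled libraries. These values rest on 4, 1 and 3 counts against 31, 23 and 26. It thus passed the count filter only through the group where it was high. The 5 calls became 2 without control replicate 2, 2 without knockout-labelled replicate 1 and 3 without knockout-labelled replicate 2. They became 2 with at least 10 counts in every library. Of the 53 tested genes, 10 were higher and 3 lower without overlap, against the 12.5% and 14.3% given above.

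Genes that single cilia also use had smaller medians. All 28 intraflagellar transport genes, which carry cargo along every cilium, were tested, with a median of 0.06. Wdr19, a subunit of the retrograde complex, was the 1 that met the limits, at 14.9, 21.6 and 16.4 CPM in the controls and 26.2, 28.3 and 30.9 CPM in the knockout-labelled libraries (0.69 ± 0.17), and without control replicate 1 the number was 0. All 31 genes of the primary cilium, its transition zone and the BBSome were tested, with a median of 0.13. Bbs12 (0.95 ± 0.20), Mks1 (0.79 ± 0.25) and Cc2d2a (0.60 ± 0.11) met the limits as higher, against 5.54% of all genes, and 10 of the 31 were higher and 0 lower without overlap, against 12.5% and 14.3% of all genes. In these 3 lists 0 genes had an adjusted p under 0.05 with edgeR, while 5, 2 and 5 had an unadjusted p under 0.05, each a smaller share than the 18.9% of all genes. DESeq2 gave 0, 1 and 3 with an adjusted p under 0.05 (8.43% of all genes), and limma-voom 0, 0 and 0 (0.0919%).

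**Figure D4:**
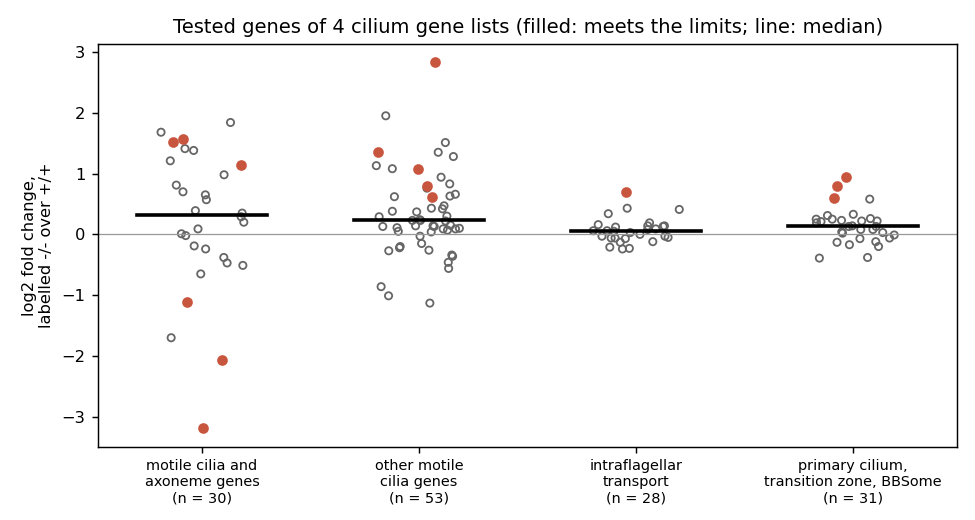
Log2 fold changes of the tested genes in the 4 cilium lists, with a line at each median and filled points for genes that met the limits. The medians lie between 0.06 and 0.32, and the other 3 lists hold 0 calls on the lower side, while the motile cilia and axoneme list, drawn up with that of Tekt1 known, holds 3.

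The genes around Tekt1 were compared because they share its stretch of chromosome 11. 7 protein-coding genes of the table lie within 100 kb, and 6 were tested. Ggt6, a gamma-glutamyltransferase, was at 2.49, 4.60 and 3.16 CPM in the controls and at 1.09, 0.770 and 1.02 CPM in the knockout-labelled libraries (-1.83 ± 0.38). Slc13a5, a citrate transporter, was at 8.77, 3.21 and 3.66 CPM against 2.72, 1.66 and 1.27 CPM (-1.45 ± 0.52). Spns2, a sphingosine-1-phosphate transporter, had a log2 fold change of -0.69 ± 0.24. These 3 of 6 met the limits as lower, where 3.66% of all genes did. Their edgeR adjusted p values were 0.0988, 0.208 and 0.203. The stretch was picked through Tekt1, and a shared cause was not tested. Mybbp1a was also lower without overlap (-0.47 ± 0.15), whereas Xaf1 (-0.25 ± 0.51) and Smtnl2 (0.48 ± 0.22) overlapped. Fbxo39 was not tested, with at most 4 counts. So 4 of the 6 tested neighbours were lower without overlap, where 14.3% of all genes were.

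The promoters were searched in a RefSeq table of windows from 250 bases before to 50 bases after each start (GRCm38.p6), which held 38 of the 45 genes and 27025 genes in all. Foxj1 was among the 7 genes without an entry. The motifs were the RFX core motif GTTGCC, the forkhead motif TGTTTAC, and the X-box, written GTNNCCNNGNAAC with 0, 1 or 2 further bases in the middle, each on both strands. The core motif can lie within an X-box. A core motif was in 18 of the 38 genes (47.4%) and in 14.1% of all genes. An X-box was in 14 (36.8%) and in 4.98% of all genes. A forkhead match was in 5 (13.2%), namely Myb, Tekt3, Ak7, Sntn and Cfap43, and in 4.05% of all genes. The genes with an X-box match were Spag16, Spag17, Dnai1, Dnai2, Dnah9, Tekt2, Tekt4, Hydin, Spef2, Zmynd10, Drc3, Ccno, Cfap44 and Rfx2. Of the genes that met the limits, Cfap44 was among them. Tekt1 held 2 core motifs in opposite orientation, at positions -35 and -15 from its start, and no X-box as written. The X-box matches below are shown for genes of different roles, in capitals with 7 bases on either side, in the direction of the gene.
Tekt2: gggggcgGTTGCTCGGCAACcagagcc
Tekt4: atacaatGTTCCTTAGGCAACcaggaac
Dnai2: ggccaggGTTGCTAGGCAACtggtaaa
Dnah9: tccaccaGTTTCCCAGCAACaacgacg
Hydin: ctctgcgGTTGCTGTGGCAACagatggt
Cfap44: gagggacGTTGCTATGGCAACcgcagta
Rfx2: ggtaaccGTTGCCGGGCGCAACgccccgc
A match describes the letters only.

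**Figure D5:**
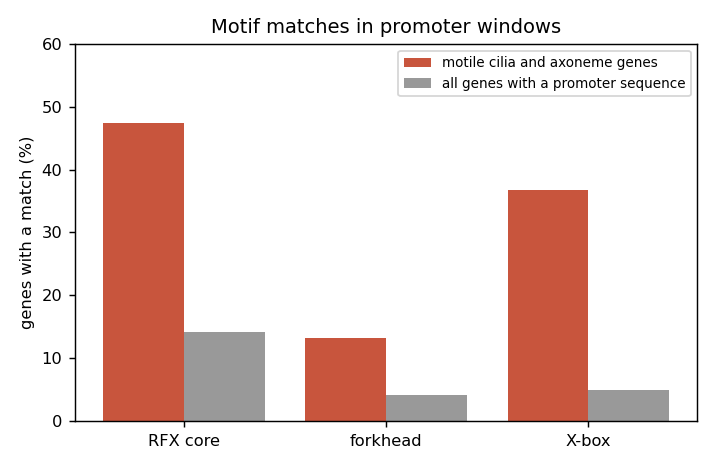
Share of genes (%) with at least 1 match in the promoter window, for the 38 motile cilia and axoneme genes with an entry and for all 27025 genes. Each motif is more frequent among the cilia genes, at 47.4% against 14.1% for the RFX core motif, 36.8% against 4.98% for the X-box and 13.2% against 4.05% for the forkhead motif.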

How the data were processed

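Thyroid RNA of 3 Thy-Tet1+/+ mice and 3 mice labelled Thy-Tet1-/- was sequenced. The deposited table, made by the authors, gives unnormalized counts for 21878 genes, of which 4100 had no read. The build is mm 10 per the submitters' processing notes. The aligner, the counting program and its use of strand are not given in the sources used here.

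The cilia genes and all lists were chosen with earlier results of these data known. The tests used edgeR 4.0.16 under R 4.3.3. Its filterByExpr function kept 14143 genes, libraries were scaled by TMM, and groups were compared over all kept genes with the quasi-likelihood test and Benjamini-Hochberg adjustment. The filter asks for enough counts in 3 libraries, so a gene can pass it through 1 group alone. The call limits follow the study's legend, a change of more than 1.5-fold with p below 0.05. The legend does not say if that p was adjusted, and p before adjustment was used here. An exact permutation test of 3 against 3 cannot give a p below 0.10 and was not used. Total counts of 8867683 to 19950898 and a biological coefficient of variation of 0.327 set the precision. p-values set the difference between groups against the spread between these libraries, 1 per mouse, which includes differences in dissected tissue. Standard errors (SE) are those of the log2 fold change.

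Values in every library were given for the tektins, the regulators, genes that met the limits, the 5 highest per kilobase, and genes with an absolute log2 fold change of at least 1. Exon lengths, positions and overlaps came from GENCODE M21 (GRCm38), and promoters from RefSeq (GRCm38.p6). Planned comparisons of tektin proteins were not analysed here. Alternatives were RLE size factors, DESeq2 1.42.0, limma-voom (limma 3.58.1), other filters on low counts, scaling to 10 epithelial marker genes, leaving out single libraries, and a block for the replicate number. The code was tested on simulated data. There were 0 further columns of values.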

Additional observations from a re-analysis of the deposited data

How the results depend on the processing

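With RLE size factors every count of calls stayed within 1.5 times its value. With DESeq2, the lower calls numbered 5 of 30, against 3.75% of all genes. Genes with an adjusted p under 0.05 numbered 3 of 30 (Ak7, Dnah11 and Tekt1), against 8.43% of all genes. Tet1 was at 1.31 with a DESeq2 adjusted p of 0.0012. With limma-voom, the higher calls numbered 7 of 30, against 5.86% of all genes. Of the 30, 10 had an unadjusted p under 0.05 (19.2% of all genes) and 0 an adjusted one (0.0919%). Without a filter on low counts, 5 of 45 genes were called higher (Cfap43, Dnaaf1, Dnah3, Foxj1 and Sntn), where 884 of all 17778 genes were. Of the 45, 14 did not overlap. By the main fit's scaling these were 9 of the 30 tested genes, where 26.8% of all tested genes did not overlap. Of the 15 not tested in the main fit, 4 were higher and 1 lower without overlap. Among all 3635 untested genes with reads, 5.56% were higher and 1.38% lower without overlap. With at least 10 counts in every library, 18 cilia genes were left, and 0 were called higher, where 737 of all 12804 genes were. The number without overlap is left out for this setting, since no share over all genes was worked out for it. The median turned to -0.19, and the other motile cilia genes gave 2 calls. That filter drops every gene with a single low library. Scaling to 10 epithelial marker genes, 3 of which were themselves called lower, moved the median of all genes to 0.49 and gave 4035 calls, 3960 of them higher. Of the 30 cilia genes, 6 were then called higher. An adjusted p under 0.05 was found for 2 of the 30 and for 944 of all 14143 genes. The median of the cilia genes was 0.77, and the 3 other lists gave 15, 9 and 16 calls. Tet1 was at 1.75 with an edgeR adjusted p of 0.0375.

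Deviations from the group mean had a mean correlation of -0.244 for same-numbered libraries and 0.122 for different numbers. Each group was centred first, which ties these values to each other. They cannot tell if same-numbered mice share more than a number. With the replicate number as a block, 0 cilia genes had an adjusted p under 0.05 (Tekt1 0.242), as did 0 of all genes. Of the 30 tested, 5 had an unadjusted p under 0.05, as did 1900 of all 14143 genes. The other motile cilia genes gave 2 calls. With each library left out in turn, higher calls ranged from 2 to 8 (3.97% to 5.97% of all genes) and lower calls from 3 to 5 (3.51% to 4.78%). Genes without overlap ranged from 10 to 16 (32.1% to 40.9% of all genes). Adjusted calls ranged from 0 to 0 and the median from 0.14 to 0.49. The other motile cilia genes gave 2 to 5 calls, intraflagellar transport 0 to 1, the primary cilium 2 to 4, all genes 1074 to 1502, and Tet1 ran from 1.14 to 1.52. The cause of these changes was not tested. Genes with fewer than 10 counts per library are limited by depth.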
